A study of Homo sapiens with 18 samples.

Results

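The 48 genes described here carry out DNA replication and the passage from G1 to S phase: 11 genes of origin licensing, 6 of helicase activation, 8 of DNA polymerases and primase, 11 of the sliding clamp, its loader, single-strand binding and ligation, 5 of nucleotide supply, the transcription factor E2F1 with the 2 cyclin E genes, and 4 genes of S-phase chromatin. They are listed by symbol and no measured value is part of the rule, but the list was chosen with earlier results of these data known. All 48 were found among the 60642 gene symbols counted, and all 48 passed the filter on low counts that left 15298 genes to test. RNA was sequenced from MDA-MB-231, an established human triple-negative breast cancer (TNBC) cell line. Cells received non-specific siRNA (siNS), siRNA against CBX3, the gene of HP1γ (siHP1γ), or siRNA against PRMT5 (siPRMT5) for 48 h, and then vehicle ethanol (Eth) or 100 nM dexamethasone (Dex), a synthetic glucocorticoid, for 8 h. This gave 6 conditions of 3 biological replicates and 18 libraries. The depletions are transient, in 1 cell line, and each used a SMART-pool, so that the effects of its single siRNAs cannot be told apart.

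The counts on genes summed to between 8682992 and 12472381 per library. PRMT5 mRNA lay between 226 and 262 CPM (counts scaled to 1000000 per library, with TMM factors) in the siNS libraries and between 6.10 and 11.5 CPM in the siPRMT5 libraries. CBX3 mRNA lay between 220 and 274 CPM in siNS and between 9.23 and 15.8 CPM in siHP1γ. PRMT5 also fell in siHP1γ Dex against siNS Dex (log2 fold change -0.35, edgeR's quasi-likelihood test, adjusted p = 0.00123). VIM, a mesenchymal marker, was at 5440 to 9590 CPM in every library. Of the other markers listed for this line, CD44 was at 506 to 857 and NR3C1 at 116 to 186 CPM. EGFR was at 114 to 264 and AXL at 182 to 1000 CPM, both lowest in the siPRMT5 libraries. The leukocyte markers PTPRC and CD3E were at most at 0.221 CPM and CD14 at most at 1.17 CPM. Of fibroblast and endothelial markers, COL1A1 was at 2.69 to 15.1, PECAM1 at 1.10 to 8.15 and PDGFRB at 0.662 to 4.59 CPM. COL1A2 and CDH5 were at most at 0.713 CPM. Of 8 luminal breast markers, ESR1, PGR and CDH1 were at most at 0.218 CPM, and the other 5 were expressed, with KRT8 at 167 to 330, KRT18 at 219 to 408, ERBB2 at 24.5 to 36.0, FOXA1 at 3.27 to 10.3 and GATA3 at 2.68 to 7.48 CPM. The libraries siHP1γ Dex replicates 1 and 3 stood farthest apart within a condition (chi-square per degree of freedom 12.3), and the counts without replicate 1 are given below.

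Replication is prepared in G1, when the origin recognition complex (ORC), CDC6 and CDT1 load the MCM2 to MCM7 ring on origins, a step called licensing. On entry into S phase, CDC45 and the GINS complex join the ring to form the active helicase, polymerases alpha, delta and epsilon copy the strands, and PCNA, loaded by RFC, holds the polymerases on DNA. Ribonucleotide reductase (RRM1, RRM2), thymidylate synthase (TYMS), thymidine kinase (TK1) and dUTPase (DUT) supply and guard the pool of deoxynucleotides. Many of these genes are transcribed around the G1/S transition by E2F factors, once cyclin-dependent kinases have inactivated RB. HP1γ binds methylated histone H3, and PRMT5 methylates arginines of histones and of splicing proteins. In bulk RNA, fewer cells at the G1/S stage and less of an mRNA per cell cannot be told apart.

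Short words bound by E2F factors were present in a larger share of these promoters than of all promoters. RefSeq promoter windows (GRCh38.p14, 250 bases before to 50 after the start of transcription) were matched by symbol for 41 of the 48 genes; CCNE2, GINS4, MCM4, MCM5, POLD3, RPA2 and RPA3 were not matched. The 4 E2F words TTTCCCGC, TTTGGCGC, TTTCGCGC and TTTGCCGC were searched on both strands. At least 1 of them was found for 20 of the 41 genes (48.8%), against 3.99% of 27305 genes with a window and 6.65% of the 10035 tested genes with a window. The box CCAAT was found for 24 of the 41 genes (58.5%), against 43.5% of the tested genes. The CHR words TTTGAA and TTCGAA, which are typical of genes expressed late in the cycle, were found for 3 of the 41 (7.32%), against 15.7%. These are matches of letters, not measured binding. The windows of 7 genes are shown because the results below turn on them, as the 160 bases before the start of transcription, 5′ to 3′ on the strand of the gene, with E2F words in capitals.

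MCM6, chr2:135876444-135876603, minus strand: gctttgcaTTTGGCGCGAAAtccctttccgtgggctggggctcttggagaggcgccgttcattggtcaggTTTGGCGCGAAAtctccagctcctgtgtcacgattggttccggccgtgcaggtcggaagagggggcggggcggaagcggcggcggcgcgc
GINS2, chr16:85688955-85689114, minus strand: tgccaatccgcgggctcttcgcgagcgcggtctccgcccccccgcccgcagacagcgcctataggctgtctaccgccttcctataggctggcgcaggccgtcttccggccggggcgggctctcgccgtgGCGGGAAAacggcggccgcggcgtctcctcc
CDT1, chr16:88803629-88803788, plus strand: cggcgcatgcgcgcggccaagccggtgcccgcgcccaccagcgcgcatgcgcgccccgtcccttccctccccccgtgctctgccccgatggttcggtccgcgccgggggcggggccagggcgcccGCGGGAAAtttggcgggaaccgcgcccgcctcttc
TYMS, chr18:657493-657652, plus strand: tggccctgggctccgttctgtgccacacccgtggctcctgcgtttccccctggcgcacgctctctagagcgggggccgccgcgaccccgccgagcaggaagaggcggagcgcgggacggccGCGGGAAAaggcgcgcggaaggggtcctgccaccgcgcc
E2F1, chr20:33686386-33686545, minus strand: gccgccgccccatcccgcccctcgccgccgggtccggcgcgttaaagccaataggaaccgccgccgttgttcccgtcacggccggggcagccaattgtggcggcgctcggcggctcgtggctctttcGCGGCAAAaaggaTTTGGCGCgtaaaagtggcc
CHAF1B, chr21:36385232-36385391, plus strand: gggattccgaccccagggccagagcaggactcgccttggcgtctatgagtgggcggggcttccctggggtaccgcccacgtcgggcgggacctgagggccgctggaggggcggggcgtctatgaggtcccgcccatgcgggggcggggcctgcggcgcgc
CCNE1, chr19:29811831-29811990, plus strand: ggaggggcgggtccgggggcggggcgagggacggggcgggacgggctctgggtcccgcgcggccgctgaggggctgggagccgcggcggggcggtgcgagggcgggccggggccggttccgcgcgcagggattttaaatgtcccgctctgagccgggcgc

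MCM6 holds 4 words, in 2 overlapping pairs that begin at bases -152 and -148 and at bases -90 and -86 from the start of transcription. E2F1 itself holds 2, at bases -33 and -20. GINS2 holds 1 word at base -31, CDT1 at base -35 and TYMS at base -39. CHAF1B and CCNE1 hold none, and neither do the windows of RRM2.

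Most of the 48 mRNAs were lower after depletion of either protein. With Dex, 28 of the 48 genes passed the test in siHP1γ against siNS cells (edgeR's quasi-likelihood test, adjusted p-value under 0.05), 26 lower and 2 higher, against 24.0% of all genes tested (12.3% lower, 11.7% higher). In siPRMT5 against siNS cells with Dex, 29 passed, all of them lower, against 42.4% of all genes (21.9% lower). Without Dex, 30 passed in siHP1γ cells (29 lower, 1 higher), against 31.8% of all genes (15.2% lower), and 33 in siPRMT5 cells (32 lower, 1 higher), against 42.1% (21.6% lower). The median log2 fold change of the 48 genes was -0.33 and -0.33 after HP1γ depletion with and without Dex, and -0.38 and -0.33 after PRMT5 depletion. The median of all genes tested was 0.00 in each of these comparisons except siHP1γ without Dex, where it was 0.01. Together the 48 genes held 0.551% to 0.580% of the counts of a library in siNS Eth and 0.534% to 0.545% in siNS Dex. They held 0.454% to 0.463% in siHP1γ Eth, 0.429% to 0.462% in siHP1γ Dex, 0.442% to 0.465% in siPRMT5 Eth and 0.416% to 0.439% in siPRMT5 Dex. The depleted libraries were thus all below the siNS libraries, and the differences per gene were moderate: among the genes called, the median absolute log2 fold change lay between 0.41 and 0.51 in the 4 comparisons.

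**Figure D1:**
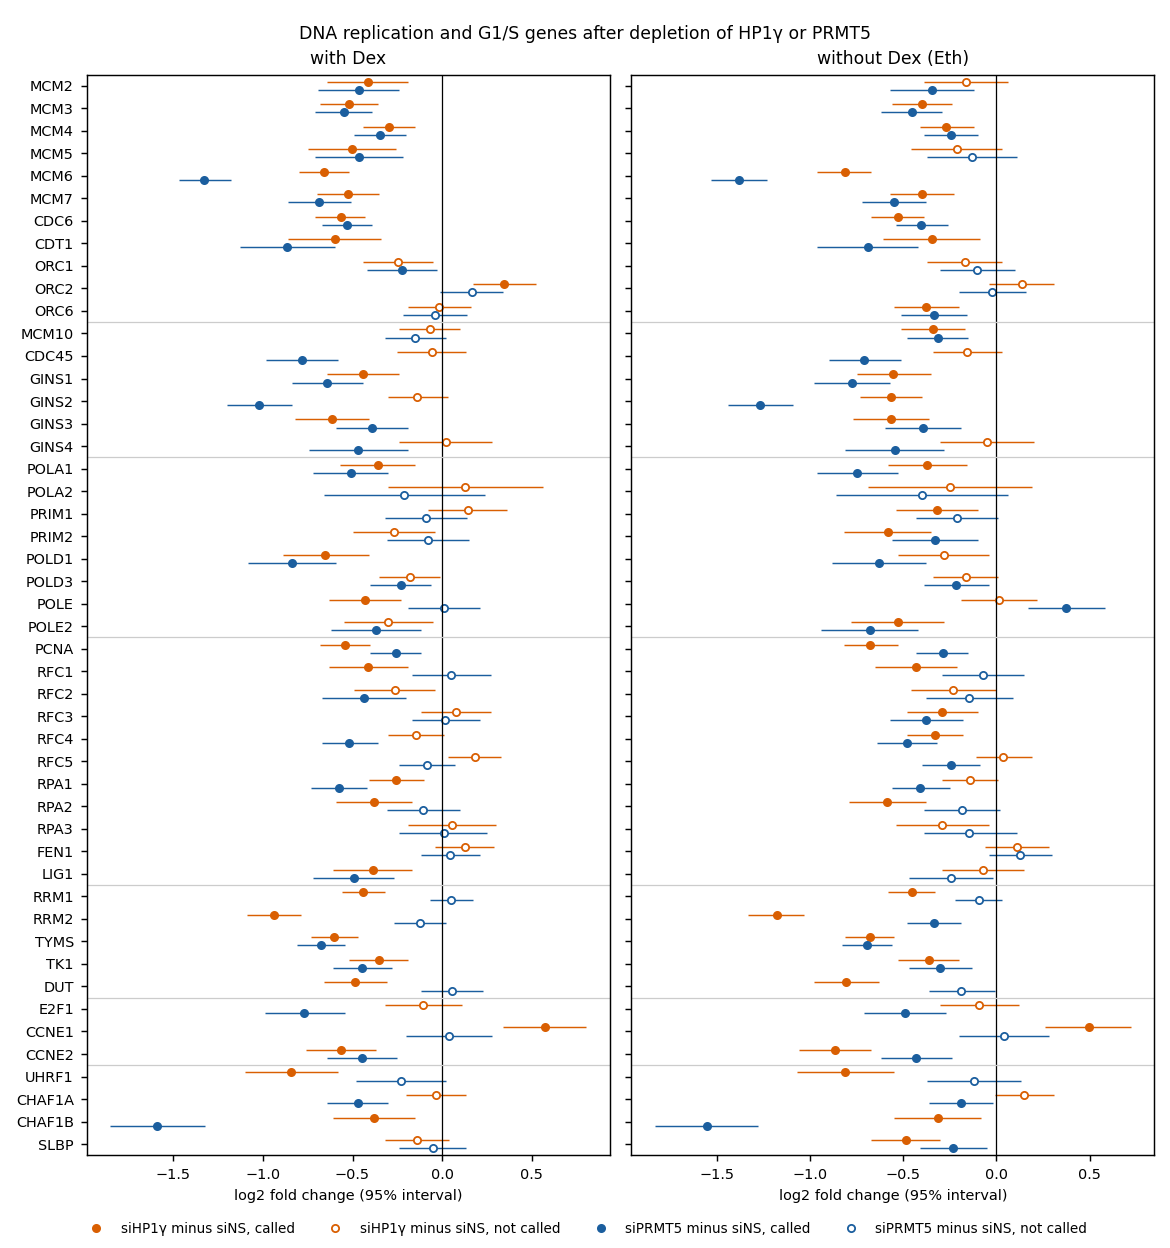
Log2 fold change (x axis) of each of the 48 genes (y axis, grouped by role, grey lines between roles) in siHP1γ (orange) and siPRMT5 cells (blue) against siNS cells, with Dex on the left and without on the right. Bars are 95% intervals of the fit of 18 libraries with 3 replicates per condition, and filled points passed the test. Most points lie left of 0, with CHAF1B, MCM6 and GINS2 farthest left in siPRMT5 cells and RRM2 in siHP1γ cells.

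The comparisons with and without Dex share no library. After HP1γ depletion, 21 genes passed in both, 20 lower and 1 higher, with 0 in opposite directions. After PRMT5 depletion, 25 passed in both, all lower. How many of all genes tested passed in both was not counted, so these numbers have no background beside them. POLA2, RPA3 and FEN1 passed in none of the 4 comparisons, and POLA2 had the lowest counts of the 48 genes, between 27 and 62 per library. Without siHP1γ Dex replicate 1, 30 genes passed in siHP1γ against siNS cells with Dex, 27 lower and 3 higher. When the libraries were scaled by their size only, 25 were lower and 3 higher, while the share of higher genes among all genes called moved from 48.7% to 69.2%. Without Dex, that scaling gave 26 lower and 2 higher after HP1γ depletion, while the share over all genes called moved from 52.1% to 63.8%. In the RefSeq windows, an E2F word was present for 15 of the 22 genes that were lower in siHP1γ Dex and had a window, and for 5 of the 17 that were not called. In siPRMT5 Dex, these were 15 of 24 and 5 of 17, in siHP1γ Eth 15 of 26 and 5 of 14, and in siPRMT5 Eth 15 of 28 and 4 of 12. The 1 gene that was higher in siPRMT5 Eth, POLE, also had a word. Of the 2 genes higher in siHP1γ Dex and the 1 higher in siHP1γ Eth, 0 had a word. This split, and the one for siPRMT5 against siHP1γ cells below, was not made over all genes tested.

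In what follows, values in parentheses with no other unit are log2 fold changes against siNS of the same treatment, and adjusted p-values are from edgeR's test.

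Of the 11 licensing genes, 8 were lower and 1 higher in siHP1γ Dex, and 9 were lower in siPRMT5 Dex. Without Dex, 7 were lower in siHP1γ and 8 in siPRMT5 cells. With Dex, 81.8% were called in each depletion, against 24.0% of all genes (12.3% lower) in siHP1γ and 42.4% (21.9% lower) in siPRMT5. Without Dex, 63.6% were called in siHP1γ, against 31.8% (15.2% lower), and 72.7% in siPRMT5, against 42.1% (21.6% lower). The MCM2 to MCM7 genes encode the 6 subunits of the ring, and MCM6 stood out among them. MCM6 mRNA without Dex was at 174, 171 and 166 CPM in the siNS libraries, 95.2, 97.3 and 98 CPM in siHP1γ and 61.7, 64.6 and 69.8 CPM in siPRMT5. MCM6 with Dex was at 149, 158 and 155 CPM in siNS, 93.1, 95.1 and 104 CPM in siHP1γ and 62, 60.4 and 61.8 CPM in siPRMT5. The 3 conditions did not overlap at either treatment, with siPRMT5 lowest and siHP1γ between. The log2 fold change of MCM6 was -0.66 (standard error 0.0649, adjusted p = 3.07e-08) in siHP1γ Dex and -1.33 (standard error 0.067, adjusted p = 3.43e-14) in siPRMT5 Dex, where 39.9% of the siNS level remained. Without Dex, the values were -0.81 and -1.38 (adjusted p = 7.17e-10 and 2.22e-14, edgeR).

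MCM3, MCM7 and MCM4 were lower in all 4 comparisons, to a lesser extent than MCM6. MCM3 mRNA without Dex was at 390, 449 and 419 CPM in the siNS libraries, 318, 316 and 319 CPM in siHP1γ and 302, 326 and 290 CPM in siPRMT5. MCM3 with Dex was at 451, 457 and 428 CPM in siNS, 272, 331 and 331 CPM in siHP1γ and 303, 288 and 322 CPM in siPRMT5. Its log2 fold changes in siHP1γ and siPRMT5 were -0.52 and -0.55 with Dex, and -0.40 and -0.45 without. MCM7 mRNA without Dex was at 218, 267 and 251 CPM in the siNS libraries, 198, 179 and 182 CPM in siHP1γ and 178, 173 and 151 CPM in siPRMT5. MCM7 with Dex was at 257, 254 and 237 CPM in siNS, 159, 181 and 180 CPM in siHP1γ and 156, 150 and 159 CPM in siPRMT5. Its log2 fold changes were -0.52 and -0.69 with Dex, and -0.40 and -0.55 without. For both genes, the depleted libraries lay below those of siNS with no overlap at either treatment. MCM4 mRNA without Dex was at 509, 570 and 541 CPM in the siNS libraries, 450, 440 and 456 CPM in siHP1γ and 459, 476 and 436 CPM in siPRMT5. MCM4 with Dex was at 535, 542 and 526 CPM in siNS, 406, 452 and 446 CPM in siHP1γ and 397, 402 and 464 CPM in siPRMT5. Its decreases were smaller, with log2 fold changes of -0.30 and -0.34 with Dex and -0.27 and -0.24 without. The largest adjusted p among these values of MCM3, MCM4 and MCM7 was 0.00505 (edgeR). MCM7 overlaps AP4M1 and 3 microRNA genes, and part of its count is uncertain, while MCM3, MCM4, MCM5 and MCM6 overlap no other gene of GENCODE 44.

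MCM2 and MCM5 passed in fewer comparisons. MCM2 mRNA without Dex was at 187, 245 and 212 CPM in the siNS libraries, 188, 195 and 192 CPM in siHP1γ and 168, 179 and 161 CPM in siPRMT5. MCM2 with Dex was at 207, 231 and 219 CPM in siNS, 132, 179 and 182 CPM in siHP1γ and 156, 142 and 179 CPM in siPRMT5. MCM2 was lower with Dex, at log2 fold changes of -0.42 and -0.46 in siHP1γ and siPRMT5, and without Dex in siPRMT5 only at the threshold used (-0.35, adjusted p = 0.00864, edgeR), with a siHP1γ adjusted p of 0.24. MCM5 mRNA without Dex was at 127, 170 and 145 CPM in the siNS libraries, 128, 128 and 125 CPM in siHP1γ and 135, 147 and 122 CPM in siPRMT5. MCM5 with Dex was at 150, 158 and 159 CPM in siNS, 86.3, 113 and 130 CPM in siHP1γ and 113, 102 and 125 CPM in siPRMT5. Both depletions lowered MCM5 with Dex (-0.51 and -0.46, adjusted p = 0.00148 and 0.00151). Without Dex, the siNS libraries of MCM5 spread over 127 to 170 CPM and overlapped both depletions. MCM2 and MCM5 were each lowest in siHP1γ Dex replicate 1 of all 18 libraries.

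CDC6 and CDT1, the loaders of the ring, were lower in all 4 comparisons. CDC6 mRNA without Dex was at 171, 167 and 173 CPM in the siNS libraries, 114, 115 and 126 CPM in siHP1γ and 133, 124 and 129 CPM in siPRMT5. CDC6 with Dex was at 152, 154 and 155 CPM in siNS, 101, 104 and 107 CPM in siHP1γ and 102, 104 and 114 CPM in siPRMT5. No depleted library reached the siNS level of its treatment. The log2 fold changes of CDC6 were -0.57 and -0.53 with Dex and -0.53 and -0.40 without, with adjusted p-values between 2.75e-07 and 1.3e-05 (edgeR). CDT1 mRNA without Dex was at 34.8, 41.8 and 40.4 CPM in the siNS libraries, 31.8, 32.2 and 28.1 CPM in siHP1γ and 27, 23.7 and 21.8 CPM in siPRMT5. CDT1 with Dex was at 43.3, 41.1 and 47.4 CPM in siNS, 23.2, 29.9 and 34.3 CPM in siHP1γ and 25.7, 20.8 and 26.1 CPM in siPRMT5. CDT1 was lower, at a log2 fold change of -0.87 in siPRMT5 Dex (standard error 0.121, adjusted p = 2.3e-06), which left 54.8%, and at -0.60 in siHP1γ Dex. Without Dex, it was at -0.69 in siPRMT5 and at -0.35 in siHP1γ (adjusted p = 0.0284), which did not pass without siNS Eth replicate 2 or 3, without siHP1γ Eth replicate 3 (adjusted p up to 0.122) or with scaling by library size. Of the ORC subunits, ORC1 was close to the threshold. ORC1 mRNA without Dex was at 41.5, 44.1 and 47.3 CPM in the siNS libraries, 36.5, 41.7 and 40 CPM in siHP1γ and 38.5, 40.6 and 44.6 CPM in siPRMT5. ORC1 with Dex was at 46.6, 44 and 47.2 CPM in siNS, 34.8, 40.4 and 41.5 CPM in siHP1γ and 35.9, 38.7 and 43.6 CPM in siPRMT5. It passed in siPRMT5 Dex (-0.23, adjusted p = 0.0478, edgeR), but not in 19 of 25 alternative settings, with an adjusted p of up to 0.229. ORC2 was higher in siHP1γ Dex (0.34, adjusted p = 0.00279), and ORC6 was lower without Dex in siHP1γ (-0.38) and siPRMT5 (-0.33).

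Of the 6 genes of helicase activation, 5 were lower with Dex and 6 without in siPRMT5 cells (against 21.9% and 21.6% of all genes), and 2 with Dex and 4 without in siHP1γ cells (against 12.3% and 15.2%). GINS2 mRNA without Dex was at 53.9, 57.5 and 58.2 CPM in the siNS libraries, 38.6, 37.7 and 38.2 CPM in siHP1γ and 24.5, 24.2 and 21.9 CPM in siPRMT5. GINS2 with Dex was at 42.5, 47.6 and 46.2 CPM in siNS, 40.1, 40.8 and 42.8 CPM in siHP1γ and 23.3, 21 and 22.9 CPM in siPRMT5. GINS2, a subunit of the GINS complex, was lowest in siPRMT5 at both treatments, and there its libraries did not overlap those of the other cells. Its log2 fold change in siPRMT5 was -1.02 with Dex (standard error 0.0814, adjusted p = 1.71e-10) and -1.27 without (standard error 0.0813, adjusted p = 3.58e-12). In siHP1γ, it was -0.57 without Dex (adjusted p = 3.34e-06), and with Dex the highest siHP1γ library (42.8 CPM) overlapped the lowest siNS library (42.5 CPM). GINS2 overlaps GSE1 on the other strand, and part of its count is uncertain.

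CDC45 mRNA without Dex was at 43.8, 50.6 and 49 CPM in the siNS libraries, 40.4, 42.1 and 46 CPM in siHP1γ and 31.3, 27.6 and 28.8 CPM in siPRMT5. CDC45 with Dex was at 39.7, 40.5 and 42.5 CPM in siNS, 37.3, 39 and 41.6 CPM in siHP1γ and 24.5, 21.5 and 25.7 CPM in siPRMT5. CDC45, which joins GINS on the ring, was lower in siPRMT5 with Dex (-0.78, adjusted p = 1.38e-07) and without (-0.71), and passed in neither siHP1γ comparison. GINS1 and GINS3 were lower in all 4 comparisons. GINS1 mRNA without Dex was at 56, 46.8 and 46.3 CPM in the siNS libraries, 31, 35.3 and 35 CPM in siHP1γ and 29.5, 27.2 and 30.2 CPM in siPRMT5. GINS1 with Dex was at 50.1, 43.8 and 48.5 CPM in siNS, 36.9, 32.9 and 35.2 CPM in siHP1γ and 32.5, 28 and 31.1 CPM in siPRMT5. Its decrease was largest in siPRMT5 without Dex (-0.77, standard error 0.0944, adjusted p = 2.79e-07), and the other 3 log2 fold changes lay between -0.64 and -0.44. GINS3 mRNA without Dex was at 31.1, 28.9 and 33.8 CPM in the siNS libraries, 20.9, 20.7 and 21.9 CPM in siHP1γ and 26, 23 and 22.4 CPM in siPRMT5. GINS3 with Dex was at 28.3, 31.9 and 30.2 CPM in siNS, 19.7, 19.9 and 19.3 CPM in siHP1γ and 22, 25.4 and 21.2 CPM in siPRMT5. GINS3 was lower, at a log2 fold change of -0.62 in siHP1γ Dex (adjusted p = 2.4e-05) and -0.39 in siPRMT5 Dex. GINS4 was lower in siPRMT5 only at this threshold (-0.47 with Dex, -0.55 without), and MCM10 was lower without Dex in siHP1γ (-0.34) and siPRMT5 (-0.31).

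**Figure D2:**
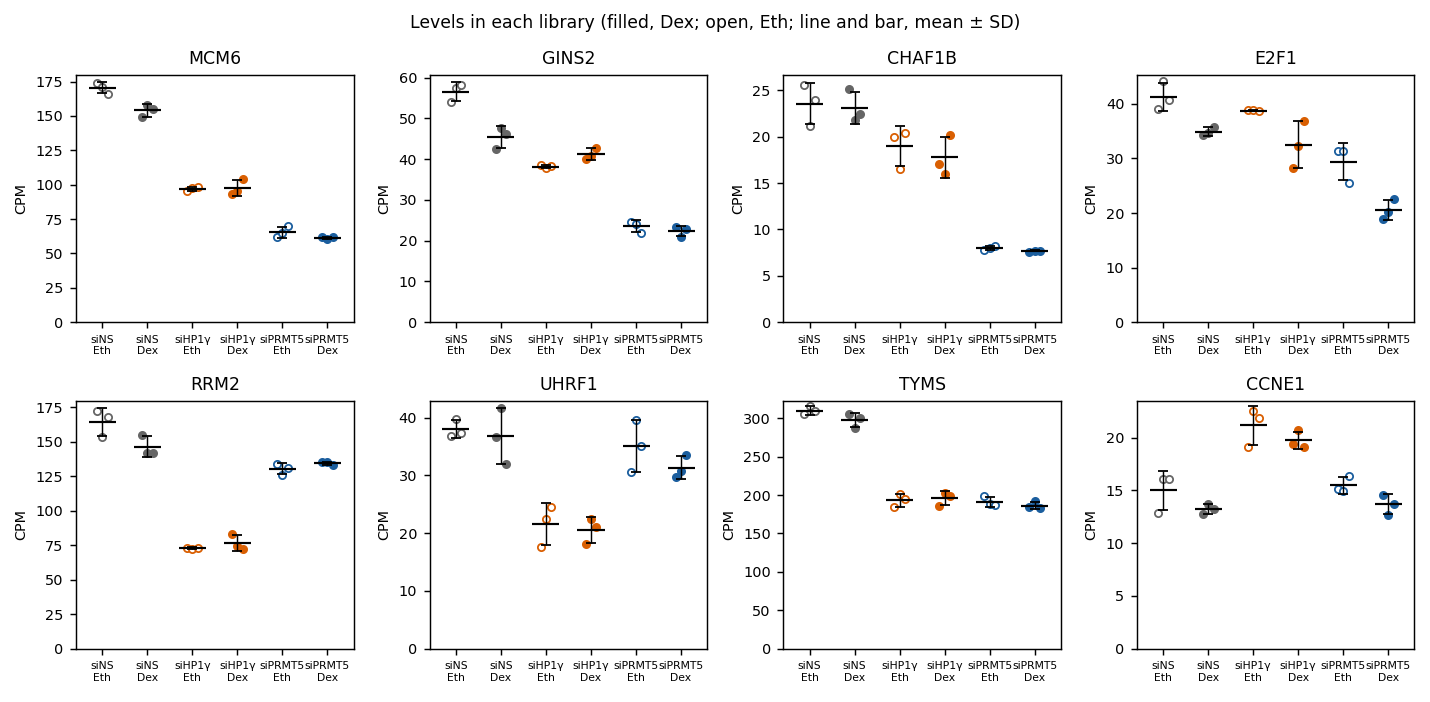
CPM (y axis, from 0) of 8 of the genes in each of the 18 libraries by condition (x axis), Eth open and Dex filled, with the mean and SD of 3 replicates. MCM6, GINS2, CHAF1B and E2F1 are lowest in siPRMT5 cells, RRM2 and UHRF1 are lowest in siHP1γ cells, TYMS is lower in both, and CCNE1 is highest in siHP1γ cells.

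Of the 8 polymerase and primase genes, 3 were lower in siHP1γ Dex and 4 in siPRMT5 Dex, and without Dex 4 were lower in siHP1γ, and 5 lower and 1 higher in siPRMT5. With Dex, 37.5% were called in siHP1γ, against 24.0% of all genes (12.3% lower), and 50% in siPRMT5, against 42.4% (21.9% lower). Without Dex, 50% were called in siHP1γ, against 31.8% (15.2% lower), and 75% in siPRMT5, against 42.1% (21.6% lower). POLD1 mRNA without Dex was at 39, 51.4 and 45.9 CPM in the siNS libraries, 37.5, 37.9 and 36.7 CPM in siHP1γ and 27.6, 32.6 and 28.1 CPM in siPRMT5. POLD1 with Dex was at 50.5, 52.7 and 58.4 CPM in siNS, 28.9, 36.6 and 37.8 CPM in siHP1γ and 27.4, 28.4 and 35 CPM in siPRMT5. POLD1, the catalytic subunit of polymerase delta, was lower in siHP1γ Dex (-0.65, standard error 0.11, adjusted p = 8e-05) and in siPRMT5 Dex (-0.84, adjusted p = 1.17e-06), and without Dex in siPRMT5 (-0.63). In each of these, the libraries of the conditions did not overlap. POLA1 mRNA without Dex was at 63.5, 71.4 and 59.9 CPM in the siNS libraries, 54.3, 51.9 and 44.3 CPM in siHP1γ and 37.8, 41.8 and 36.6 CPM in siPRMT5. POLA1 with Dex was at 56.3, 69.4 and 58.2 CPM in siNS, 49, 48.8 and 45.4 CPM in siHP1γ and 39.6, 47 and 42.2 CPM in siPRMT5. POLA1, the catalytic subunit of polymerase alpha, was lower in all 4 comparisons, most in siPRMT5 without Dex (-0.75, standard error 0.099, adjusted p = 9.99e-07). POLE, the catalytic subunit of polymerase epsilon, behaved differently: it was lower in siHP1γ Dex (-0.43, 107 ± 0.258 CPM in siNS against 79.4 ± 5.17 CPM, SD, n = 3) and higher in siPRMT5 without Dex (0.38, 88.1 ± 7.18 CPM in siNS against 114 ± 10.4 CPM). Its partner POLE2 was lower in 3 comparisons, most in siPRMT5 without Dex (-0.68). The primase genes PRIM1 (-0.32) and PRIM2 (-0.58) were lower in siHP1γ without Dex, and PRIM2 also in siPRMT5 without Dex (-0.33). POLD3 was lower in siPRMT5 with Dex (-0.23) and without (-0.22).

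Among the 11 genes of the clamp, its loader, RPA and ligation, 5 were lower in each of the 4 comparisons and 0 were higher by edgeR's quasi-likelihood test. These 45.5% stand against 24.0% of all genes called (12.3% lower) in siHP1γ Dex and 31.8% (15.2% lower) in siHP1γ Eth. In siPRMT5, 42.4% of all genes were called with Dex (21.9% lower) and 42.1% without (21.6% lower), close to 45.5% in either direction. PCNA mRNA without Dex was at 217, 227 and 219 CPM in the siNS libraries, 139, 144 and 132 CPM in siHP1γ and 186, 175 and 182 CPM in siPRMT5. PCNA with Dex was at 199, 214 and 182 CPM in siNS, 137, 134 and 138 CPM in siHP1γ and 172, 163 and 162 CPM in siPRMT5. PCNA was below the siNS libraries of its treatment in every depleted library, and lower in siHP1γ than in siPRMT5. Its log2 fold change was -0.54 in siHP1γ Dex (standard error 0.0656, adjusted p = 8.98e-07) and -0.68 without Dex, against -0.26 and -0.29 in siPRMT5. Reads of PCNA could have been divided with its copies, since 3 PCNA pseudogenes were also counted. RFC1 and RPA2 were lower in siHP1γ only at this threshold, RFC1 at -0.41 and -0.43 and RPA2 at -0.38 and -0.59 with and without Dex. RFC4, a subunit of the clamp loader, was lower in siPRMT5 (-0.52 with and -0.48 without Dex) and in siHP1γ without Dex (-0.33). RPA1, the large subunit of the single-strand binding complex, was lower in siPRMT5 (-0.58 and -0.41) and in siHP1γ Dex (-0.26). LIG1, which joins the fragments of the lagging strand, was lower with Dex in siHP1γ (-0.39) and siPRMT5 (-0.49). RFC2, RFC3 and RFC5 were each lower in 1 or 2 comparisons, with log2 fold changes between -0.43 and -0.24.

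All 5 genes of nucleotide supply were lower in siHP1γ cells, with and without Dex. In siPRMT5 cells, 2 were lower with Dex and 3 without. These were 40%, against 42.4% of all genes called (21.9% lower), and 60%, against 42.1% (21.6% lower). In siHP1γ cells, 24.0% of all genes were called with Dex (12.3% lower) and 31.8% without (15.2% lower). RRM2 mRNA without Dex was at 172, 153 and 168 CPM in the siNS libraries, 72.8, 71.8 and 73.2 CPM in siHP1γ and 134, 126 and 131 CPM in siPRMT5. RRM2 with Dex was at 155, 142 and 142 CPM in siNS, 83.1, 74 and 72.4 CPM in siHP1γ and 135, 135 and 133 CPM in siPRMT5. RRM2, the subunit of ribonucleotide reductase whose level follows S phase, thus was about evenly low in the 6 siHP1γ libraries, and the siPRMT5 libraries lay between them and siNS. The log2 fold change was -0.94 in siHP1γ Dex (standard error 0.0688, adjusted p = 2.2e-10) and -1.18 in siHP1γ Eth (standard error 0.0693, adjusted p = 3.66e-12), which left 52.3% and 44.2% of the siNS level. In siPRMT5, it was -0.33 without Dex (adjusted p = 0.000255), and with Dex the 3 siPRMT5 libraries lay at 133 to 135 CPM against 142 to 155 CPM in siNS (adjusted p = 0.134). RRM2 overlaps 2 genes on the other strand and has 3 pseudogenes that were also counted.

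DUT mRNA without Dex was at 72.3, 59.6 and 68.7 CPM in the siNS libraries, 37.1, 40.2 and 37.3 CPM in siHP1γ and 60, 54.9 and 61 CPM in siPRMT5. DUT with Dex was at 57, 53.6 and 59.5 CPM in siNS, 39.7, 39.8 and 42 CPM in siHP1γ and 61.2, 58.9 and 56.8 CPM in siPRMT5. DUT was lower in siHP1γ, at a log2 fold change of -0.81 without Dex (adjusted p = 3.71e-08) and -0.49 with Dex, and did not pass in siPRMT5. Its 8 pseudogenes were also counted. RRM1, the large subunit of the reductase, gave -0.44 with Dex (466 ± 18.4 CPM in siNS against 344 ± 5.32 CPM in siHP1γ, SD, n = 3) and -0.46 without. In siPRMT5 Dex, where it did not pass, its level was 482 ± 18.9 CPM. TYMS, which makes thymidylate, was lower in both depletions, from 297 ± 9.3 CPM in siNS Dex to 196 ± 8.67 CPM in siHP1γ and 186 ± 4.9 CPM in siPRMT5 (log2 fold changes -0.60 and -0.68). Without Dex, TYMS was at -0.68 and -0.70. TK1 was lower in all 4 comparisons, between -0.45 and -0.30.

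E2F1 and the cyclins E split. E2F1 mRNA without Dex was at 39, 44.1 and 40.7 CPM in the siNS libraries, 38.8, 38.9 and 38.6 CPM in siHP1γ and 31.4, 31.3 and 25.5 CPM in siPRMT5. E2F1 with Dex was at 34.3, 34.6 and 35.8 CPM in siNS, 28.3, 32.3 and 36.9 CPM in siHP1γ and 19, 20.1 and 22.5 CPM in siPRMT5. E2F1, an activator of the G1/S genes, was lower in siPRMT5 than in siNS libraries with no overlap, at a log2 fold change of -0.77 with Dex (standard error 0.103, adjusted p = 1.26e-06) and -0.49 without (adjusted p = 0.000268). In siHP1γ, it did not pass (adjusted p = 0.462 with Dex and 0.506 without), with 95% intervals of the log2 fold change from -0.32 to 0.11 and from -0.30 to 0.12. CCNE1 mRNA without Dex was at 12.9, 16.1 and 16.1 CPM in the siNS libraries, 19.1, 22.5 and 21.9 CPM in siHP1γ and 15.1, 14.9 and 16.4 CPM in siPRMT5. CCNE1 with Dex was at 12.8, 13.7 and 13.2 CPM in siNS, 19.4, 20.7 and 19.1 CPM in siHP1γ and 14.6, 12.7 and 13.7 CPM in siPRMT5. CCNE1, which encodes cyclin E1, a partner of CDK2, was the only one of the 48 genes higher in siHP1γ at both treatments, at a log2 fold change of 0.57 with Dex (standard error 0.106, adjusted p = 0.000237) and 0.49 without (adjusted p = 0.000758), and no siHP1γ library overlapped siNS. In siPRMT5 its levels overlapped siNS. CCNE2 mRNA without Dex was at 45.2, 42.7 and 46.9 CPM in the siNS libraries, 21.9, 25.7 and 26 CPM in siHP1γ and 32.3, 34.4 and 33.4 CPM in siPRMT5. CCNE2 with Dex was at 37.5, 39.8 and 36.3 CPM in siNS, 24.5, 27 and 25.2 CPM in siHP1γ and 24.9, 30.4 and 27.6 CPM in siPRMT5. CCNE2, the gene of cyclin E2, went the other way and was lower in siHP1γ (-0.57 with Dex, -0.87 without, adjusted p = 6.07e-08) and in siPRMT5 (-0.45 and -0.43). CCNE2 overlaps INTS8 and NDUFAF6 on the other strand.

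The 4 genes of S-phase chromatin held the largest decrease of all 48 genes. CHAF1B mRNA without Dex was at 25.6, 21.2 and 23.9 CPM in the siNS libraries, 20, 16.5 and 20.4 CPM in siHP1γ and 7.83, 7.98 and 8.2 CPM in siPRMT5. CHAF1B with Dex was at 25.1, 21.8 and 22.4 CPM in siNS, 17.1, 16 and 20.2 CPM in siHP1γ and 7.62, 7.73 and 7.7 CPM in siPRMT5. CHAF1B, a subunit of the CAF-1 complex that places histones on new DNA, lay at about a single level in the 6 siPRMT5 libraries, far below the others. Its log2 fold change in siPRMT5 was -1.59 with Dex (standard error 0.122, adjusted p = 8.91e-11) and -1.55 without (standard error 0.124, adjusted p = 1.91e-10), which left 33.3% and 34%. In siHP1γ, it was -0.38 and -0.31 (adjusted p = 0.0109 and 0.0294). CHAF1B overlaps MORC3. CHAF1A, the large subunit of the same complex, was lower in siPRMT5, at -0.47 with Dex and -0.19 without (adjusted p = 0.0475). UHRF1 mRNA without Dex was at 36.9, 39.8 and 37.3 CPM in the siNS libraries, 17.6, 22.5 and 24.6 CPM in siHP1γ and 30.6, 39.6 and 35 CPM in siPRMT5. UHRF1 with Dex was at 36.7, 41.7 and 32 CPM in siNS, 18.1, 22.4 and 21.1 CPM in siHP1γ and 29.7, 30.7 and 33.6 CPM in siPRMT5. UHRF1, which brings the maintenance DNA methyltransferase to newly copied DNA, was lower in siHP1γ, at a log2 fold change of -0.84 with Dex (standard error 0.119, adjusted p = 7.98e-06) and -0.81 without, and its siPRMT5 and siNS libraries overlapped. SLBP, which binds the ends of histone mRNAs, was lower without Dex in siHP1γ (-0.49) and in siPRMT5 (-0.23), where its libraries overlapped those of siNS.

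For each named decrease or increase whose libraries did not overlap, an exact two-sided permutation test of 3 against 3 libraries gives p = 0.1, the smallest it can give, so the calls rest on the fit across genes.

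The depletions were compared directly, siPRMT5 against siHP1γ cells, to see where the 48 genes differed between them. With Dex, 19 of the 48 genes passed, 8 higher and 11 lower in siPRMT5, against 49.9% of all genes tested (24.4% higher, 25.5% lower). Without Dex, 23 passed, 10 higher and 13 lower, against 48.4% of all genes (23.4% higher, 25.0% lower). The number of the 48 genes that passed was thus not above the background. These comparisons share no library with each other, and 18 genes passed in both, all in the same direction. The number of all genes tested that passed in both was not counted, so the 18 have no background beside them. POLE, PCNA, RFC1, RPA2, RRM1, RRM2, DUT and UHRF1 were higher in siPRMT5 than in siHP1γ cells at both treatments. MCM6, CDC45, GINS2, GINS4, RFC5, RPA1, E2F1, CCNE1, CHAF1A and CHAF1B were lower at both.

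The largest differences were those of CHAF1B, at -1.21, standard error 0.125, adjusted p = 1.21e-08 with Dex and -1.24 without (edgeR). GINS2 was at -0.88 and -0.70, CDC45 at -0.72 and -0.55, and MCM6 at -0.67 and -0.57. E2F1 was at -0.66 (adjusted p = 7.84e-06) and -0.40 (adjusted p = 0.00175), and CCNE1 at -0.53 and -0.45. In the other direction, RRM2 was at 0.81 (standard error 0.0689, adjusted p = 3.71e-10) with Dex and 0.85 without, and its 3 siPRMT5 libraries lay above the 3 siHP1γ libraries at each treatment. UHRF1 was at 0.61 and 0.69, DUT at 0.54 and 0.62, and PCNA at 0.28 and 0.39. By role, 3 of the 5 nucleotide supply genes were higher and 0 lower in siPRMT5 at each treatment by edgeR's test, where the others, TYMS and TK1, did not pass. Of the 6 helicase activation genes, 3 were lower and 0 higher at each treatment. Of the 11 licensing genes, 1 was lower with Dex (MCM6), and 2 without (MCM6 and CDT1). Of all genes tested, 49.9% were called with Dex and 48.4% without. The share called of the helicase activation genes (50% at each treatment) was close to this. That of the nucleotide supply genes was 60% at each treatment, and that of the licensing genes was lower, 9.09% with and 18.2% without Dex. The call of CDT1 (log2 fold change -0.34 against siHP1γ) was lost without siHP1γ Eth replicate 1 or 2 or siPRMT5 Eth replicate 2 or 3 (adjusted p up to 0.134). Among genes with a window, an E2F word was present for 3 of the 10 lower, 4 of the 7 higher and 13 of the 24 not called with Dex, and for 5 of 12, 4 of 8 and 11 of 21 without. For MCM3, MCM4 and TYMS, the 95% intervals of the difference with Dex ran from -0.19 to 0.13, from -0.19 to 0.10 and from -0.21 to 0.06. When libraries were scaled by their size only, 7 genes were higher and 16 lower with Dex, so that the share of higher genes among those called moved from 42.1% to 30.4%.

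**Figure D3:**
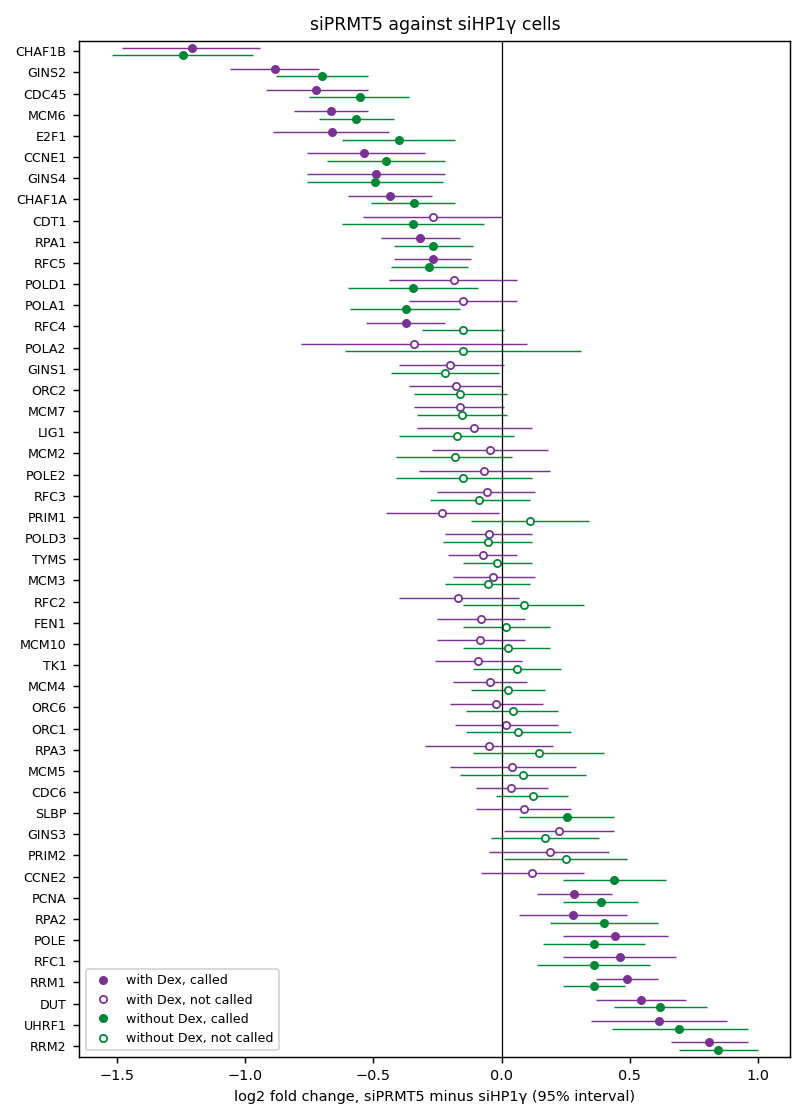
Log2 fold change of siPRMT5 against siHP1γ cells (x axis) for each of the 48 genes (y axis, ordered by the mean of both values), with Dex in purple and without in green. Bars are 95% intervals and filled points passed the test. CHAF1B, GINS2 and CDC45 lie farthest below 0, and RRM2, UHRF1 and DUT farthest above.

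Dex did not move the 48 genes past the thresholds used for it, an adjusted p-value under 0.01 and a change of at least 1.5-fold. By edgeR's quasi-likelihood test, 0 of the 48 passed in siNS cells, against 2.71% of all genes tested, 0 in siHP1γ cells, against 1.67%, and 0 in siPRMT5 cells, against 5.44%. DESeq2 also called 0 in each. At an unadjusted p under 0.05, 20 of the 48 genes passed in siNS cells (41.7%, against 22.4% of all genes), 7 in siHP1γ cells (14.6%, against 18%) and 9 in siPRMT5 cells (18.8%, against 26.7%), so that only the share in siNS cells lay above that of all genes. The log2 fold changes ran from -0.37 to 0.28 in siNS cells (median -0.12, 35 below 0 and 13 above), from -0.30 to 0.23 in siHP1γ cells (median -0.03), and from -0.52 to 0.17 in siPRMT5 cells (median -0.07). Without the limit on the fold change, GINS2 passed in siNS cells (-0.32, adjusted p = 0.00632, against 5.28% of all genes), and CDC6 (-0.27, adjusted p = 0.00343) and E2F1 (-0.52, adjusted p = 0.000762) in siPRMT5 cells (against 10.3%). In E2F1, this was a step from 31.4, 31.3 and 25.5 CPM to 19.0, 20.1 and 22.5 CPM, with no overlap. E2F1 also fell with Dex in siNS cells, from 39, 44.1 and 40.7 CPM to 34.3, 34.6 and 35.8 CPM. In siHP1γ cells, it fell from 38.8, 38.9 and 38.6 CPM to 28.3, 32.3 and 36.9 CPM. Neither of these decreases passed, though the libraries did not overlap.

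Whether the response to Dex differed after a depletion was tested as an interaction, at an adjusted p-value under 0.05. None of the 48 genes passed by edgeR's test for either depletion, against 0.399% of all genes for HP1γ and 3.80% for PRMT5. An unadjusted p under 0.05 was found for 13 genes with HP1γ (27.1%, against 17.2% of all genes) and for 8 with PRMT5 (16.7%, against 19.0%). DESeq2 called 2 for HP1γ, GINS2 with a less negative response than in siNS (difference 0.43, adjusted p = 0.0221) and POLE with a more negative one (-0.44, adjusted p = 0.046), and 0 for PRMT5. Of all 15298 genes, DESeq2 called 298 for HP1γ and 716 for PRMT5.

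**Figure D4:**
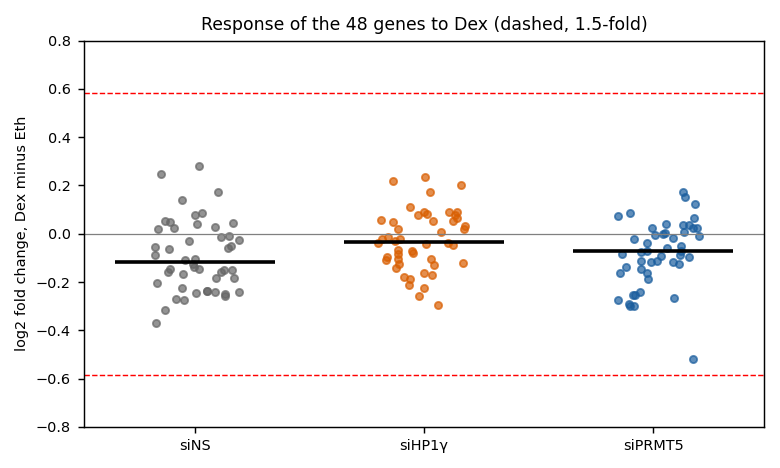
Log2 fold change with Dex (y axis) of the 48 genes (points) in siNS, siHP1γ and siPRMT5 cells (x axis), with the median as a line and the 1.5-fold limits dashed. The points of siNS cells run from -0.37 to 0.28, and no point of any cells crosses the limits.

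Genes of related processes were counted in the same fit. Their counts are to be read against the shares of all genes called, which were 24.0% in siHP1γ Dex (11.7% higher, 12.3% lower), 42.4% in siPRMT5 Dex (20.6% higher, 21.9% lower), 31.8% in siHP1γ Eth (16.5% higher, 15.2% lower) and 42.1% in siPRMT5 Eth (20.6% higher, 21.6% lower). Of 29 other replication genes tested, 1 was higher and 4 lower in siHP1γ Dex, and 5 higher and 9 lower in siPRMT5 Dex. Their median was -0.08 in both. Without Dex, 3 were higher and 9 lower in siHP1γ (median -0.14), and 1 higher and 15 lower in siPRMT5 (median -0.25), beside a median of -0.33 of the 48 genes in each. The largest decreases were those of POLE3 and POLE4, the small subunits of polymerase epsilon. POLE3 was at 203, 185 and 186 CPM in siNS Dex and at 60.5, 68.4 and 68.2 CPM in siHP1γ Dex, a log2 fold change of -1.54 ± 0.0703 (SE, adjusted p = 2.68e-14). It was at 182, 174 and 183 CPM in siPRMT5 Dex. POLE4 was at 51.0, 48.5 and 43.6 CPM in siNS Dex and at 19.6, 17.2 and 18.3 CPM in siPRMT5 Dex, a log2 fold change of -1.38 ± 0.107 (SE, adjusted p = 1.03e-10). It was at 38, 43.1 and 47.6 CPM in siHP1γ Dex. POLE3 was thus lowest in the siHP1γ libraries and POLE4 in the siPRMT5 libraries, with no overlap with either other condition. GMNN, the gene of the licensing inhibitor geminin, was lower in siHP1γ Dex (-0.92, adjusted p = 1.87e-09), and CDC7, a kinase that fires origins, was higher (0.41). DSCC1 (-0.60) and RNASEH2C (-0.56) were lower in siPRMT5 Dex.

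Of 16 other genes of nucleotide metabolism, 1 was higher and 5 lower in siHP1γ Dex, and 1 higher and 8 lower in siPRMT5 Dex (medians -0.10 and -0.28). Without Dex, 1 was higher and 8 lower in siHP1γ, and 1 higher and 9 lower in siPRMT5 (medians -0.23 and -0.43), the latter median being below that of the 48 genes. RRM2B, the p53-inducible subunit of ribonucleotide reductase, was higher in both (0.41 and 0.71). DCTD (-0.62 and -0.43) and DTYMK (-0.43 and -0.37), which feed the thymidylate pathway, were lower in both, and DCK (-1.04) and CAD (-0.87) were lower in siPRMT5 Dex. Of 12 other genes of S-phase chromatin and histone mRNA, 1 was higher and 2 lower in siHP1γ Dex, and 5 higher and 1 lower in siPRMT5 Dex. The count in siHP1γ Dex (25.0%) was close to the share of all genes. Without Dex, 2 were lower in siHP1γ, and 3 higher and 2 lower in siPRMT5. This list also holds CDC25B, a phosphatase that activates CDKs on entry into mitosis and no chromatin gene, which gave 1 of the 2 lower calls in siHP1γ Dex and 1 of the 5 higher calls in siPRMT5 Dex. ZNF473, which takes part in histone mRNA processing, was lower in siHP1γ Dex (-0.71) and higher in siPRMT5 Dex (0.35), the histone chaperone ASF1A was higher in both (0.49 and 0.40), CDC25B was lower in siHP1γ Dex (-0.21) and higher in siPRMT5 Dex (0.26), and LSM11 was higher in siPRMT5 Dex (0.35).

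Of 27 other genes of the E2F and RB axis, 5 were higher and 7 lower in siHP1γ Dex, and 8 higher and 7 lower in siPRMT5 Dex, 44.4% and 55.6% of the list. Without Dex, 6 were higher and 12 lower in siHP1γ, and 9 higher and 9 lower in siPRMT5. TFDP1, the partner with which E2F factors bind DNA, was at 245, 224 and 227 CPM in siNS Dex, at 123, 119 and 112 CPM in siHP1γ Dex and at 171, 165 and 166 CPM in siPRMT5 Dex. The 3 conditions did not overlap, and TFDP1 was lower in siHP1γ (-0.97, adjusted p = 1.18e-10) and siPRMT5 (-0.47, adjusted p = 3.64e-06). The repressor E2F6 was lower in siHP1γ Dex (-0.77) and higher in siPRMT5 Dex (0.59). CCND1, the gene of cyclin D1, was higher in siPRMT5 cells with Dex (0.54, adjusted p = 1.27e-06) and without (0.64), and lower in siHP1γ without Dex (-0.27). CCND2 was lower in siHP1γ Dex (-0.71) and siPRMT5 Dex (-1.28). The CDK inhibitor gene CDKN1A went in opposite directions, higher in siHP1γ (0.29 with Dex, 0.52 without) and lower in siPRMT5 (-0.43 and -0.45). CDKN1B, another CDK inhibitor gene of the list, lay higher in the siPRMT5 than in the siNS libraries, with no overlap. It was at 94.9, 94.9 and 93.7 CPM against 50.1, 49.1 and 49.7 CPM with Dex. Without Dex, it was at 117, 102 and 119 CPM against 57.7, 48.1 and 53 CPM. In siHP1γ Dex, CDKN1B was at 65.3, 55.6 and 65.6 CPM, also above siNS with no overlap. In siHP1γ without Dex, it was at 55.4, 64.6 and 60.7 CPM and overlapped siNS. In siPRMT5 Dex, CDKN2C was higher (0.98), CDKN2D lower (-1.25), RB1 higher (0.44) and CDK4 lower (-0.22). CDK2 passed in siHP1γ without Dex (-0.21) and in none of the other 3 comparisons with siNS. CDKN2A, the gene of p16, had 0 counts in all 18 libraries, which allows up to 3 counts or 0.241 to 0.346 CPM.

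The mitosis and G2/M genes, the next phase of the cycle, did not follow the 48 genes in siPRMT5 cells. Of 29 tested, 16 were lower and 0 higher by edgeR's test in siHP1γ Dex (median -0.19), and 19 lower and 0 higher without Dex (median -0.29). With library size scaling, 9 were lower with Dex. In siPRMT5 cells, 18 were higher and 1 lower with Dex (median 0.31), and 12 higher and 1 lower without (median 0.18). The direct comparison gave 23 higher and 0 lower in siPRMT5 against siHP1γ with Dex (median 0.47), and 25 and 0 without (median 0.51). Of all genes tested, 24.4% were higher and 25.5% lower in it with Dex, and 23.4% and 25.0% without. CDC20 (-0.69, adjusted p = 1.8e-06), MKI67 (-0.52) and CDCA8 (-0.52) were lower in siHP1γ Dex, and of these MKI67 (0.39) and CDCA8 (0.27) were higher in siPRMT5 Dex. NDC80, a kinetochore protein, was higher in siPRMT5 Dex (0.70, adjusted p = 1.3e-09), at 162, 162 and 160 CPM against 101, 101 and 96.0 CPM in siNS, as were KIF20A (0.60) and the mitotic kinase AURKA (0.56). In siHP1γ Dex, NDC80 (-0.24) and KIF20A (-0.51) were lower. Of 30 repair genes, 2 were higher and 5 lower in siHP1γ Dex, and 6 higher and 11 lower in siPRMT5 Dex. The share called in siHP1γ Dex (23.3%) was close to that of all genes. Without Dex, 3 were higher and 10 lower in siHP1γ, and 2 higher and 15 lower in siPRMT5. RAD51AP1 was lower in both (-0.52 and -0.68), as were PARP1 (-0.42 and -0.44) and FANCI (-0.33 and -0.27), and FANCD2 (-0.85) was lower in siPRMT5 Dex, where NBN was higher (0.88). Whether the share of cells in each phase differed between the conditions was not measured.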

How the data were processed

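Total RNA was extracted from MDA-MB-231 cells of 6 conditions with 3 replicates each. Per the study's methods and the submitters' processing notes, the authors made Lexogen libraries, sequenced them on a NextSeq 500, aligned the reads to hg38 with Bowtie2 2.4.2 and counted them per gene with HTSeq 0.9.1. The strand setting and annotation of the counting are not given in the sources used here. Bowtie2 does not divide a read across an intron, so reads over splice junctions could be lost. The deposited values are raw counts per gene symbol, 1 file per library, with 8682992 to 12472381 counts each, and 3 counts correspond to 0.241 to 0.346 CPM. A deposited table of the authors' own comparisons (log2 fold changes, p-values and mean normalized counts, from DESeq2 2.11.40.7) was not used.

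Groups came from the labels. Genes were kept by filterByExpr and scaled by TMM, and 1 quasi-likelihood model of the 6 conditions was fitted to all 18 libraries (edgeR 4.0.16, limma 3.58.1, R 4.3.3). This left 12 residual degrees of freedom, and p-values were adjusted by the method of Benjamini and Hochberg over the 15298 genes tested. Genes were called at an adjusted p-value under 0.05, and for responses to Dex under 0.01 with a change of at least 1.5-fold. CPM values are counts scaled to 1000000 per TMM-scaled library. The scripts were tested on simulated counts. Alternatives were DESeq2 1.42.0, other scalings, other filters, only the conditions compared, a replicate block and leaving out each library. The 48 genes, the lists and the tests were chosen with earlier results of these data known. Values in every library are given for E2F1, the cyclin E genes, PCNA, MCM2 to MCM7, CDC6, CDT1 and ORC1, and for the 5 genes with the largest absolute log2 fold change among those called in each comparison of depletions, with a mean of at least 5 CPM. From each other list, up to 3 genes called in each depletion with Dex are named by the same order, with CCND1, CDKN1A, RB1, CDKN2A, CDK2 and CDK4. CDKN1B was added beside CDKN1A. Other members and GENCODE 44 overlaps are given where a count concerns them. Figures were drawn with matplotlib 3.10.9 in Python 3.11.15.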

Additional observations from a re-analysis of the deposited data

Results flagged for a closer look

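None of the 48 genes had a response to Dex that differed between depleted and siNS cells by edgeR's quasi-likelihood test. Among the other genes named, the response of NBN, a subunit of the MRE11 repair complex, differed between siPRMT5 and siNS cells by 0.77 on the log2 scale (standard error 0.138, adjusted p = 0.00184). NBN was at 155, 129 and 133 CPM in siNS Eth and 121, 129 and 122 CPM in siNS Dex, and at 134, 156 and 163 CPM in siPRMT5 Eth and 215, 257 and 213 CPM in siPRMT5 Dex. The response of PRMT5 itself differed by 0.57 (edgeR, standard error 0.151, adjusted p = 0.0297). It was at 226, 262 and 259 CPM in siNS Eth and 244, 247 and 226 CPM in siNS Dex. In siPRMT5 cells, where PRMT5 is the siRNA target, 8.37, 7.75 and 6.10 CPM were left with Eth and 11.5, 10.6 and 9.39 CPM with Dex. CBX3, the target in siHP1γ cells, was at 9.23, 9.91 and 10.5 CPM with Eth and 15.8, 14 and 11.4 CPM with Dex. Whether the depletions were weaker with Dex was not tested.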

How the results depend on the processing

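Only 75 of the calls described, each a gene in a single comparison, were recomputed individually, under 25 alternative settings. They belong to the genes chosen by rule for values in every library. Other calls were not recomputed in this way. Among them were CHAF1A in siPRMT5 without Dex, CHAF1B in siHP1γ against siNS, and those of ORC2, SLBP and POLD3. Of the 1875 recomputed values, 1847 kept their direction and their side of the threshold, 28 no longer passed and 0 reversed. Those that no longer passed were ORC1 in siPRMT5 Dex, CDT1 in siHP1γ against siNS and in siPRMT5 against siHP1γ without Dex, and MCM2 in siPRMT5 without Dex (without siNS Eth replicate 2, adjusted p = 0.0823). Leaving out each library in turn gave 27 to 30 of the 48 genes called in siHP1γ Dex, 27 to 29 in siPRMT5 Dex, 27 to 32 in siHP1γ Eth and 30 to 35 in siPRMT5 Eth, and 18 to 22 with and 21 to 24 without Dex in siPRMT5 against siHP1γ. For the response to Dex it gave 0 in siNS and siHP1γ and 0 to 1 in siPRMT5 cells, where E2F1 passed without siPRMT5 Eth replicate 3 (-0.61, adjusted p = 0.000265). For the difference in response it gave 0 for HP1γ and 0 to 1 for PRMT5, where RFC3 passed without siHP1γ Dex replicate 1 or 3 or siPRMT5 Dex replicate 3. With no fold limit, 1 gene passed for Dex in siNS and 2 in siPRMT5 cells. For the difference in response, the count was 1 for HP1γ with no filter on low counts (POLE, -0.46) and 2 with DESeq2, and 1 for PRMT5 when only the conditions compared were fitted (RFC3, 0.39). The cause was not tested.

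Over all genes, calls for Dex rose from 414 to 808 in siNS, from 255 to 504 in siHP1γ and from 832 to 1569 in siPRMT5 cells with no fold limit. Those for the difference in response with HP1γ were 61, against 374 with no filter, 298 by DESeq2, 94 with the replicate block and 20 to 186 with a library left out, and with PRMT5 582 against 319 to 897. Libraries of the same replicate number shared little of their deviation from the condition means. Of 45 correlations between these deviations, 6 were over 0.1 (range -0.186 to 0.315), and 17 were higher than those with the other numbers. Whether same-numbered libraries were prepared together cannot be told from these correlations. With the replicate block, 29 of the 48 genes passed in siHP1γ Dex, 29 in siPRMT5 Dex, 31 in siHP1γ Eth, 32 in siPRMT5 Eth, 19 and 24 in siPRMT5 against siHP1γ with and without Dex, and 0 for each response to Dex and each difference in response. Depth limits POLA2 most, and 32 of the 48 genes overlap another annotated gene.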
